A study of Mus musculus with 18 samples.

Results

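The lysosomal module comprises 33 mouse genes for hydrolases, membrane proteins, lipid carriers and regulators of the lysosome, taken by symbol from a fixed list from which the cathepsins were left out. All 33 symbols were found among the 23511 genes of the deposited table, and all 33 passed the filter on low counts, which 16609 genes passed. RNA was sequenced in bulk from macrophages of the mouse peritoneal cavity, sorted by surface Tim-4 into low and high cells, Tim-4 being a phosphatidylserine receptor of resident cavity macrophages encoded by Timd4. The 6 groups, of 3 libraries each, were Tim-4low and Tim-4high macrophages of tumor mice given anti-Tim-4, of tumor mice given an isotype antibody, and of mice with no tumor and no treatment. Tumor mice carried MC38-LG, a line named for the mouse colon carcinoma MC38, in the peritoneal cavity, and the labels give antibody on day 7 after tumor challenge and harvest on day 10. The tumor comparison therefore sets tumor plus isotype antibody against neither, and their parts cannot be told apart. The sources used here do not give strain or age, nor whether a library held cells of 1 mouse or of several, so each p-value is about the spread among libraries, which may be technical.

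Lysosomes are acidic organelles in which soluble hydrolases cut the sugars, sulfates, lipids and proteins of material taken up by endocytosis, phagocytosis and autophagy. Most of these enzymes are glycoproteins delivered through mannose 6-phosphate receptors, LAMP proteins form much of the membrane, and saposins, made from Psap, present lipids to the enzymes. Tfeb, Tfe3 and Mitf are related transcription factors known to bind an E-box found before many lysosomal genes, and macrophages, which digest engulfed cells, are rich in lysosomes.

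Library totals lay between 24530070 and 34110392 estimated counts. Timd4 followed the sort: Tim-4low libraries 1, 2 and 3 had 28.97, 23.1 and 11.9 CPM against 219, 173 and 169 CPM in Tim-4high libraries of anti-Tim-4 mice, 14.5, 10.99 and 75.4 against 319.5, 294 and 280.4 CPM in isotype mice and 108, 9.52 and 9.13 against 886, 680.3 and 622 CPM in no-tumor mice. Timd4 was lower in Tim-4low libraries without overlap in each condition, with an adjusted p of 0.0881 in anti-Tim-4 mice. CPM are counts scaled to TMM library sizes, and per-library values below follow the order of libraries 1, 2 and 3. Isotype Tim-4low library 3 and no-tumor Tim-4low library 1 stood above their groups in Timd4, and the no-tumor one also had 967.2 CPM summed over 10 B cell markers, against 93.9 and 128.7 CPM in its replicates. All 8 macrophage markers passed the filter, and their summed level lay between 17390 and 45080 CPM in all 18 libraries. Of these 8, Lyz2 had the highest level in any library, 35850 CPM, and Itgam the next, 8028 CPM. A macrophage sum, here and below, can therefore rest largely on Lyz2. In bulk libraries, fewer cells of a type and less RNA per cell cannot be told apart.

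Per length of merged exons and scaled to equal totals, the members covered a wide range. Psap stood first with a mean level of 7144 over 18 libraries, followed by the progranulin gene Grn (1633), Lamp1 (1403), Hexa (695.7), Man2b1 (494.8), Npc2 (440.3) and Asah1 (319.2). The lowest were Arsb (14.3), Galc (6.76) and Atp6v0d2 (1.10), the last with at most 62 counts in a library. Over libraries, Gla ranged from 12.2 to 91.1, whereas Npc2 ranged only from 382.7 to 491.6 on the same scale. Summed over the 33 members, Tim-4low libraries of anti-Tim-4 mice had 16840 to 18490 CPM against 20410 to 20650 CPM in the Tim-4high ones. The sums were 17250 to 17850 against 20630 to 20800 CPM in isotype mice, and 12100 to 13450 against 13530 to 14730 CPM in no-tumor mice, Tim-4low first. Psap made up a median of 38.3% of that sum in isotype Tim-4high libraries and 23.1% in no-tumor Tim-4high libraries.

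RefSeq promoters (GRCm38.p6, 250 bases before to 50 after a start) were on hand for 30 of the 33 members, in 38 promoters, and not for Npc1, Asah1 and Atp6v0d2. The E-box CACGTG, which reads the same on both strands, occurred in 8 of the 38 promoters (21.05%). It occurred in 7.15% of all 32851 RefSeq promoters on hand and in 9.011% of the 16646 whose genes have deposited counts. All 8 member promoters also held the longer form TCACGTG, or CACGTGA on the other strand, which overlaps the first by design. The longer form occurred in 3.765% of all promoters and in 5.226% of those whose genes have deposited counts. The 8 genes were Arsa, Gaa, Gla, Glb1, Lamp1, Mcoln1, Naglu and Sgsh, and among promoters of the other lysosomal genes described below the first form occurred in 26.32%. The stretches of 5 of them are shown 5′ to 3′ on the gene's strand with CACGTG in capitals, because 4 of these genes had the largest differences between groups among members with a match and Lamp1 had the most matches, 4 before its start. They are the RefSeq bases at chrX:134601156-134601255 for Gla (minus strand), chr9:114400976-114401075 for Glb1 (plus), chr11:119267787-119267886 for Gaa (plus), chr15:89477426-89477525 for Arsa (minus) and chr8:13159061-13159160 for Lamp1 (plus). A match describes these letters and shows neither binding nor its lack.
Gla: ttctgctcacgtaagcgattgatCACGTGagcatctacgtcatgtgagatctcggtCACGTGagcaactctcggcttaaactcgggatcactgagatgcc
Glb1: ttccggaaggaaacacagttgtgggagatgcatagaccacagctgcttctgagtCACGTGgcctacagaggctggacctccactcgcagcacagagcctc
Gaa: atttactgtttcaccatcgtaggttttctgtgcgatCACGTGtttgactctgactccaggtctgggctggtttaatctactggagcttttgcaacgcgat
Arsa: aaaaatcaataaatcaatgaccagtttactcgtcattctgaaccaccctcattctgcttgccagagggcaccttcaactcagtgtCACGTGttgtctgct
Lamp1: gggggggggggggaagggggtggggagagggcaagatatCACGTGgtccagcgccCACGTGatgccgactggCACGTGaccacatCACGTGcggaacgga

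**Figure D1:**
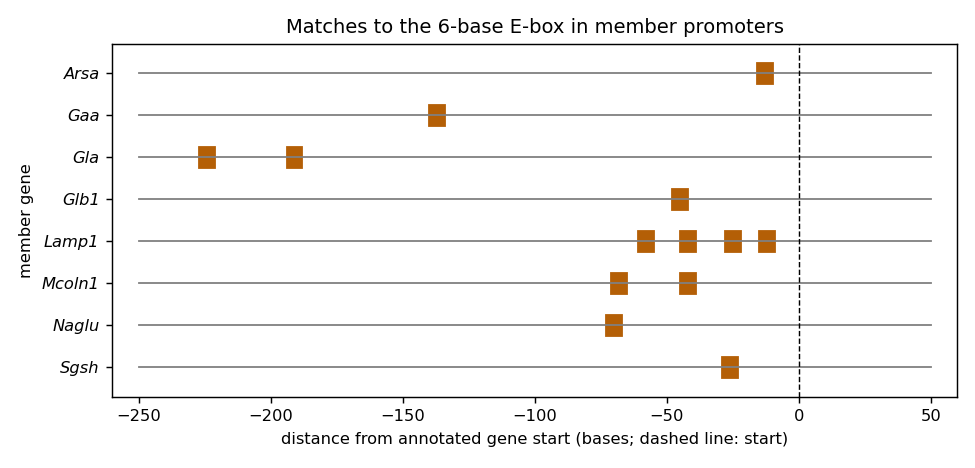
Matches to CACGTG (boxes) along the promoters of the 8 members that hold one, by distance in bases from the RefSeq start (dashed line). Lamp1 has 4 matches within 61 bases of its start, Gla and Mcoln1 have 2 each, and the other 5 genes have 1.

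The first question was how the 2 sorted populations differ. In no-tumor mice, most glycosidases and several other hydrolases were lower in Tim-4low than in Tim-4high macrophages, while Psap and Tfeb were higher. By edgeR, 18 of 33 members were called at an adjusted p under 0.05, 2 higher and 16 lower, against 24.6% of all genes tested (12.8% higher and 11.8% lower). The median log2 fold change of the members was -0.25 in no-tumor mice, and that of all genes tested was 0.02. In isotype mice 18 members were called, 1 higher and 17 lower, against 24.1% of all genes (11.3% and 12.9%), with medians of -0.25 for the members and 0.01 for all genes. For 16 members all 3 Tim-4low libraries of no-tumor mice were below all 3 Tim-4high ones and for 2 above, against 17.2% and 17.7% of all genes, and in isotype mice for 20 below and 3 above, against 21.9% and 21.3%. The no-tumor and isotype comparisons share no library. Of the 18 members called in each, 16 were called in both and in the same direction, 15 lower and 1 higher, which is 88.9% of each list. Over all genes tested, genes called in both made up 53.1% of the no-tumor calls and 54.1% of the isotype calls.

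Among the 11 glycosidases, 8 were lower in Tim-4low macrophages of no-tumor mice and 10 in isotype mice, and none was called higher. Glb1, the beta-galactosidase that degrades GM1 ganglioside, had 129, 109.5 and 192 CPM in Tim-4low against 436, 375 and 459 CPM in Tim-4high libraries of isotype mice. It had 135, 97.7 and 85.9 CPM in Tim-4low against 383, 239 and 248 CPM in Tim-4high libraries of no-tumor mice. Neither pair of groups overlapped, and Glb1 had the largest fall of all members in both conditions, with log2 fold changes of -1.56 ± 0.27 (SE, adjusted p = 0.000903) with isotype and -1.45 ± 0.27 (adjusted p = 0.00118) without a tumor. Glb1 shares 165 exon bases with Tmppe on the same strand, so its counts are uncertain to that extent. Gaa, the acid alpha-glucosidase that breaks down glycogen, had 132, 114 and 151 against 338, 301 and 324 CPM in isotype mice and 90.1, 81.5 and 79.9 against 200.2, 178 and 158 CPM in no-tumor mice, Tim-4low first. Its groups were again apart, at -1.28 ± 0.14 (adjusted p = 5.84e-05) with isotype and -1.09 ± 0.14 (adjusted p = 5.73e-05) without a tumor. Naglu, an enzyme of heparan sulfate breakdown, had 110.5, 111 and 125 CPM in Tim-4low against 238, 215 and 252 CPM in Tim-4high libraries with isotype (log2 fold change -1.03 ± 0.11, adjusted p = 4.59e-05), and without a tumor its log2 fold change was -0.80 ± 0.11 (adjusted p = 7.06e-05).

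Most of the other glycosidases were lower as well. Man2b1, the lysosomal alpha-mannosidase, fell by 0.73 on the log2 scale in Tim-4low macrophages of isotype mice and by 0.71 in those of no-tumor mice. Galc, the galactosylceramidase, fell by 0.50 and 0.99, Hexa, the alpha subunit of beta-hexosaminidase, by 0.48 and 0.61, and Gusb, the beta-glucuronidase, by 0.35 and 0.42 in the same order of conditions. Idua, the alpha-L-iduronidase, fell by 0.23 with isotype and by 0.43 without a tumor, where its Tim-4high libraries lay between 43.41 and 43.55 CPM. Gla, the alpha-galactosidase deficient in Fabry disease, fell in isotype mice (log2 fold change -0.67 ± 0.12, adjusted p = 0.00106) and was not called without a tumor (log2 fold change -0.15 ± 0.13, adjusted p = 0.441). Neu1, the sialidase, did likewise, at -0.46 (adjusted p = 0.00145) with isotype and -0.12 (adjusted p = 0.354) without a tumor. Manba, the beta-mannosidase, was called in neither, and its means lay between 66.96 and 78.3 CPM over all 6 groups.

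Of the 4 sulfatase genes, Arsa and Sgsh were lower in Tim-4low macrophages in both conditions, and Arsb and Ids were called in neither. With library number as a block, which pairs the 2 populations of a condition, Arsb was called lower with isotype (-0.36, adjusted p = 0.00443). Arsa, the arylsulfatase that degrades sulfatide, had 71.9, 65.1 and 89.5 CPM in Tim-4low against 171, 151 and 172 CPM in Tim-4high libraries of isotype mice (log2 fold change -1.12 ± 0.15, adjusted p = 0.000134). In no-tumor mice it had 61.5, 62.7 and 61.8 against 122, 95.8 and 86.1 CPM (log2 fold change -0.71 ± 0.15, adjusted p = 0.00246), and the groups did not overlap in either. Sgsh, the heparan sulfamidase, changed by -0.25 with isotype, with an adjusted p of 0.0499 at the edge of the threshold, and by -0.43 without a tumor (adjusted p = 0.00198). Among the 6 lipid genes, Smpd1, the acid sphingomyelinase, fell by 0.89 on the log2 scale with isotype and by 0.77 without a tumor. Psap went the other way in no-tumor mice, with 4551, 5055 and 5704 CPM in Tim-4low against 3241, 3262 and 3244 CPM in Tim-4high libraries (log2 fold change 0.65 ± 0.10, adjusted p = 0.00016), and all 3 Tim-4low libraries were above all 3 Tim-4high ones. In isotype mice Psap had 8670, 8402 and 8174 against 7902, 8419 and 7684 CPM, and these groups overlapped. Npc1 and Npc2, which move cholesterol out of lysosomes, the acid lipase gene Lipa and the acid ceramidase gene Asah1 were not called between populations in either condition, although the block called Npc1 lower without a tumor (-0.28, adjusted p = 0.00514).

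Tpp1, a tripeptidyl peptidase, fell by 0.66 with isotype and by 0.28 without a tumor, and Ppt1, which removes palmitate from proteins, fell by 0.28 and 0.61 on the log2 scale. Ppt1 shares 129 exon bases with Cap1 on the opposite strand, and Cap1 had 333511 counts against 76429 for Ppt1 over all libraries, so part of its level is uncertain where the use of strand is not known. The acid phosphatase gene Acp2 was not called. Acp5, the tartrate-resistant acid phosphatase, had 29.6, 7.23 and 7.94 CPM in Tim-4low against 10.4, 3.36 and 2.90 CPM in Tim-4high libraries without a tumor (log2 fold change 1.42 ± 0.50, adjusted p = 0.0518). Library 1 was the highest in both of these groups, and the fit without no-tumor Tim-4high library 1 called Acp5 at an adjusted p of 0.00599. The fits without no-tumor Tim-4low library 2 or 3 called it too (adjusted p = 0.0215 and 0.032). The fit without no-tumor Tim-4low library 1 did not, so the difference rests in part on that library. With the block Acp5 was called higher in Tim-4low macrophages without a tumor (1.38, adjusted p = 4.1e-06) and with isotype (0.62, adjusted p = 0.000884). Among membrane proteins, Lamp1 fell by 0.25 on the log2 scale in each of the 2 conditions, and Lamp2 fell by 0.53 without a tumor (adjusted p = 0.00021) and was not called with isotype (log2 fold change -0.22 ± 0.08, adjusted p = 0.0596). Mcoln1, the lysosomal calcium channel, and Atp6v0d2, a proton pump subunit isoform prominent in osteoclasts, were not called.

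Grn, whose product progranulin is carried to lysosomes and is needed for their function, had 1705, 1646 and 1907 CPM in Tim-4low against 3066, 2925 and 3257 CPM in Tim-4high libraries of isotype mice, and 1159, 1210 and 1146 against 1976, 1816 and 1793 CPM in no-tumor mice. Both pairs of groups were apart, with log2 fold changes of -0.81 ± 0.08 (adjusted p = 4.50e-05) with isotype and -0.67 ± 0.08 (adjusted p = 2.63e-05) without a tumor. Tfeb was the 1 member called higher in Tim-4low macrophages in both conditions without the block, and with it Acp5 was as well. Tfeb had 34.1, 36.95 and 35.02 against 25.9, 22.9 and 23.5 CPM with isotype (log2 fold change 0.55 ± 0.09, adjusted p = 0.00048) and 41.2, 36.4 and 36.2 against 27.5, 30.4 and 27.4 CPM without a tumor (log2 fold change 0.42 ± 0.09, adjusted p = 0.00253). Tfe3 and Mitf were called in neither, and the block called Tfe3 higher with isotype (0.24, adjusted p = 0.00504) and Lamp2 lower (-0.22, adjusted p = 0.0327). In all, the block called 20 members without a tumor, 3 higher and 17 lower, and 22 with isotype, 3 higher and 19 lower, beside 5703 and 5658 of 16609 genes.

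Markers of other kinds moved along with the populations. The summed level of 8 macrophage markers was lower in Tim-4low libraries, at 17390 to 18630 against 21400 to 22620 CPM with isotype and 26420 to 29320 against 36420 to 45080 CPM without a tumor. That of 7 monocyte markers was 3971 to 5250 CPM in Tim-4low against 7880 to 8055 CPM in Tim-4high libraries with isotype, and 1615 to 2015 against 194.4 to 273.5 CPM without a tumor. Of these 7, Chil3 had the highest level in any library, 11300 CPM, and Ccr2 the next, 1766 CPM. A high monocyte sum, here and below, therefore rests largely on Chil3. Gene by gene none of the 7 was called lower: Ccr2, Ly6c2 and Vcan were higher in Tim-4low macrophages with isotype, and Ccr2, Ifitm6 and Ly6c2 were among those higher without a tumor. The 8 dendritic cell markers summed to 26.3 to 62.7 against 15.6 to 66.95 CPM with isotype, where Batf3 was higher, and to 130.2 to 234.1 against 26.1 to 48.1 CPM without a tumor, where Batf3, Cd209a and Clec9a were higher. The 13 T and NK cell markers summed to 26.2 to 150.4 against 17.7 to 135.2 CPM with isotype and to 50.3 to 120.6 against 7.55 to 33.2 CPM without a tumor, where Cd2 was higher. The 7 mast cell markers, of which Hdc was lower in both conditions, summed to 27.2 to 79.5 against 129.7 to 154.3 CPM with isotype and to 8.88 to 149.2 against 47.96 to 155.8 CPM without a tumor. Hdc had the highest level of the 7 in any library, 149 CPM, and Cma1 the next, 39.17 CPM. A mast cell sum, here and below, can therefore rest largely on Hdc. The part of these in the members' differences was not tested. The isotype call of Sgsh was lost in 9 of 11 alternative fits and that of Idua in 6, and the no-tumor call of Lamp1 was lost when its 2 groups were fitted alone (adjusted p = 0.0867). Without no-tumor Tim-4low library 1, 18 members were called in no-tumor mice, and without isotype Tim-4low library 3, 16 were called in isotype mice.

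**Figure D2:**
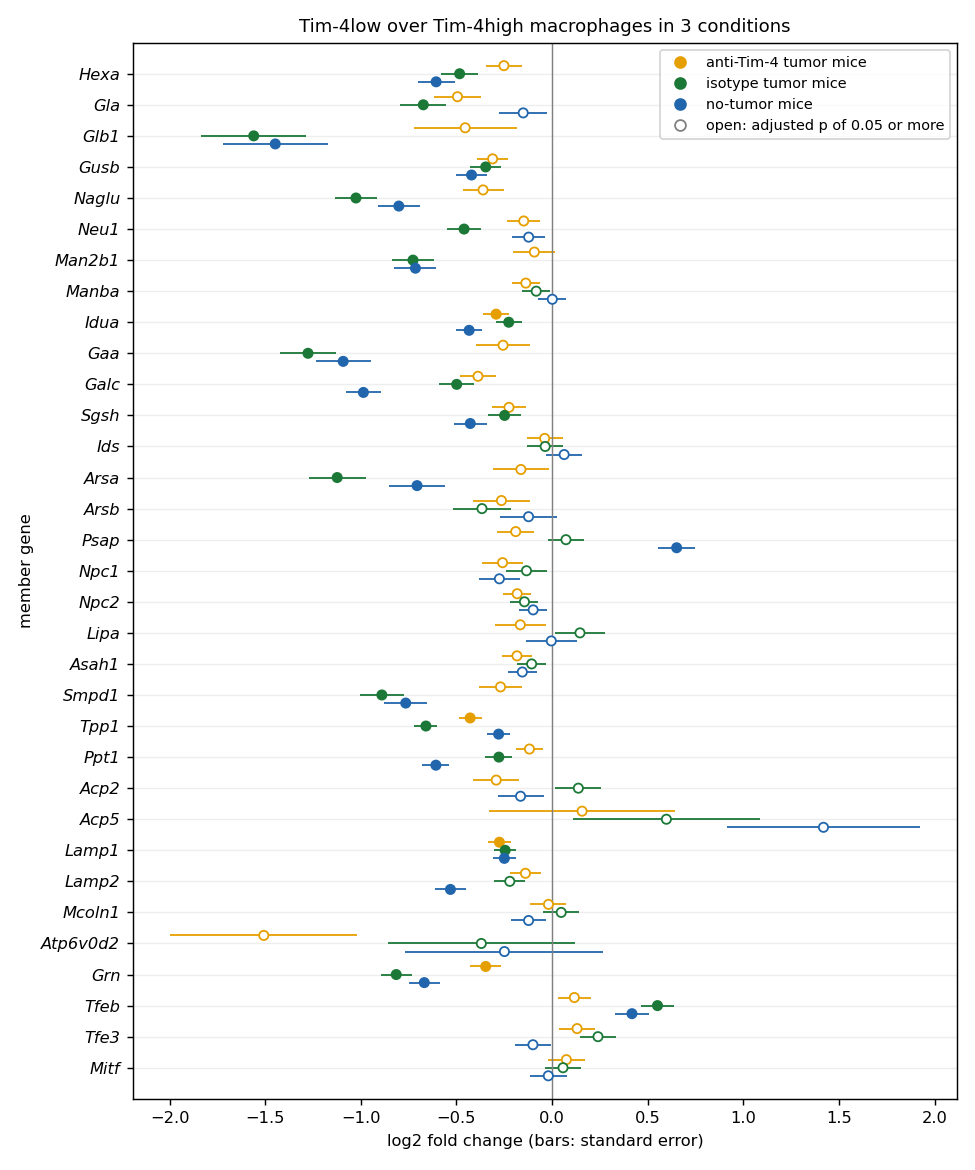
Log2 fold change of Tim-4low over Tim-4high macrophages (x axis, bars are standard errors) for the 33 members (y axis, ordered by role), in anti-Tim-4 tumor mice, isotype tumor mice and no-tumor mice. Filled points passed an adjusted p of 0.05. Most filled points lie left of 0, Glb1 and Gaa farthest at -1.56 and -1.28 with isotype, and the anti-Tim-4 points lie closer to 0 for these genes.

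After anti-Tim-4, fewer members were called between populations. In anti-Tim-4 mice 4 of 33 members were called, all lower in Tim-4low macrophages, against 1.39% of all genes tested (0.542% higher and 0.849% lower). The 4 were Tpp1 (log2 fold change -0.43 ± 0.06, adjusted p = 0.00401), Lamp1 (log2 fold change -0.28 ± 0.06, adjusted p = 0.0308), Grn (log2 fold change -0.35 ± 0.08, adjusted p = 0.0434) and Idua (log2 fold change -0.29 ± 0.07, adjusted p = 0.0441). The median log2 fold change of the members was -0.23, against 0.00 for all genes. For 20 of the 33 members all 3 Tim-4low libraries were below all 3 Tim-4high ones, against 11.2% of all genes, and for none were they all above. Only Tpp1 was called in every alternative fit: 2 members were called without anti-Tim-4 Tim-4low library 3 and 1 without each of the other 5 libraries of this comparison. The log2 fold changes of these 4 members moved by less than 1.5 times in all 11 alternative fits. With the library number as a block 15 members were called, beside 1182 of 16609 genes, among them Gla (log2 fold change -0.50, adjusted p = 0.00126), Naglu (-0.36, adjusted p = 0.00584), Glb1 (-0.48, adjusted p = 0.0154) and Gaa (-0.27, adjusted p = 0.0411). Markers moved here too. The 8 dendritic cell markers, of which Batf3 was higher, summed to 26.9 to 32.2 CPM in Tim-4low against 13.5 to 16.1 CPM in Tim-4high libraries, and the 6 fibroblast markers, none of them called, to 14.04 to 24.7 against 3.89 to 5.87 CPM. The 7 monocyte markers, of which Ccr2 was higher, summed to 11850, 9075 and 3296 CPM in Tim-4low against 12060, 9218 and 3894 CPM in Tim-4high libraries, library 3 being the lowest of both groups. The part of these in the members' differences was not tested.

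The second question was how tumor mice differed from no-tumor mice. In isotype tumor mice the members moved in both directions. Gla, Psap, Neu1, Npc1, Naglu, Gaa, Grn, Tpp1, Lamp1 and Lamp2 were higher in both populations, and Man2b1, Ids, Arsb, Hexa and Mcoln1 were lower in both. In Tim-4high macrophages 23 members were called, 14 higher and 9 lower, against 51.5% of all genes tested (27.3% higher and 24.1% lower). In Tim-4low macrophages 21 were called, 16 higher and 5 lower, against 49.8% (25.2% and 24.6%). The median log2 fold change of the members was 0.35 in Tim-4high and 0.31 in Tim-4low macrophages, against -0.01 and -0.02 for all genes. These 2 comparisons share no library, but same-numbered libraries of the 2 populations correlated within a condition, so the comparisons are not independent repeats. In both, 18 members were called, each in the same direction. These are 78.3% of the calls in Tim-4high and 85.7% of those in Tim-4low macrophages, against 74.4% and 76.9% for all genes tested. In Tim-4high macrophages all 3 isotype libraries were above all 3 no-tumor ones for 14 members and below for 9, against 29.5% and 28.1% of all genes, and in Tim-4low macrophages for 17 and 6, against 29.1% and 28.9%.

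Gla had the largest rise of all members. It had 102, 114 and 94.2 CPM in isotype against 14.5, 19.1 and 19.1 CPM in no-tumor Tim-4high libraries (log2 fold change 2.56 ± 0.13, adjusted p = 1.47e-09), and 64.8, 64.6 and 65.1 against 12.8, 18.4 and 16.2 CPM in Tim-4low libraries (log2 fold change 2.04 ± 0.13, adjusted p = 1.40e-08). The lowest isotype library was above the highest no-tumor one by a wide margin in both populations. Neu1 had 167, 165 and 174 against 68.8, 82.2 and 88.97 CPM in Tim-4high (log2 fold change 1.08 ± 0.09, adjusted p = 1.63e-07) and 128, 114 and 126 against 67, 74.1 and 79.4 CPM in Tim-4low libraries (log2 fold change 0.74 ± 0.09, adjusted p = 6.55e-06), again without overlap. Naglu rose by 0.96 on the log2 scale in Tim-4high and 0.74 in Tim-4low macrophages, and Gaa by 0.85 and 0.66. Gusb rose in Tim-4low macrophages (log2 fold change 0.26 ± 0.08, adjusted p = 0.0146) and was not called in Tim-4high ones (log2 fold change 0.19 ± 0.08, adjusted p = 0.0667). Glb1 was called in neither, at 0.55 ± 0.27 (adjusted p = 0.101) in Tim-4high and 0.43 ± 0.27 (adjusted p = 0.194) in Tim-4low macrophages, although the fit without no-tumor Tim-4high library 1 called it at 0.79 (adjusted p = 0.0327) in Tim-4high macrophages. Idua and Manba were not called.

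Man2b1 fell in both populations. It had 1505, 1300 and 1537 CPM in isotype against 2627, 2238 and 2350 CPM in no-tumor Tim-4high libraries (log2 fold change -0.73 ± 0.11, adjusted p = 5.09e-05), and 912, 807 and 904 against 1409, 1532 and 1456 CPM in Tim-4low libraries (log2 fold change -0.75 ± 0.11, adjusted p = 4.90e-05). No isotype library reached the lowest no-tumor one of its population. Hexa fell by 0.50 on the log2 scale in Tim-4high and 0.37 in Tim-4low macrophages, and Galc fell in Tim-4high macrophages (log2 fold change -0.59 ± 0.09, adjusted p = 7.64e-05) and was not called in Tim-4low ones (log2 fold change -0.10 ± 0.09, adjusted p = 0.39). The sulfatases were mostly lower: Ids, the iduronate sulfatase, had 81.6, 78.6 and 78.5 against 130.3, 104 and 124 CPM in Tim-4high libraries (log2 fold change -0.59 ± 0.09, adjusted p = 9.62e-05) and changed by -0.68 in Tim-4low macrophages (adjusted p = 2.58e-05). Arsb, which acts on dermatan and chondroitin sulfate, fell by 0.62 in Tim-4high and 0.86 in Tim-4low macrophages, and Sgsh fell in Tim-4high macrophages (log2 fold change -0.30 ± 0.09, adjusted p = 0.00989) and was not called in Tim-4low ones (log2 fold change -0.12 ± 0.09, adjusted p = 0.281). Arsa rose in Tim-4high macrophages (log2 fold change 0.70 ± 0.15, adjusted p = 0.000949) and was not called in Tim-4low ones (log2 fold change 0.28 ± 0.15, adjusted p = 0.123).

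Of the 6 lipid genes, 4 rose in both populations and none fell. Psap had 7902, 8419 and 7684 CPM in isotype against 3241, 3262 and 3244 CPM in no-tumor Tim-4high libraries (log2 fold change 1.30 ± 0.10, adjusted p = 6.84e-08), and 8670, 8402 and 8174 against 4551, 5055 and 5704 CPM in Tim-4low libraries (log2 fold change 0.72 ± 0.10, adjusted p = 2.10e-05). Neither pair overlapped, and the no-tumor Tim-4high libraries lay between 3241 and 3262 CPM. Npc1 had 149, 169.7 and 137 against 82.9, 98.3 and 101 CPM in Tim-4high (log2 fold change 0.69 ± 0.11, adjusted p = 7.60e-05) and 145, 149 and 122 against 68.7, 85.3 and 79.5 CPM in Tim-4low libraries (log2 fold change 0.83 ± 0.11, adjusted p = 1.58e-05). Npc2 rose by 0.35 on the log2 scale in Tim-4high and 0.31 in Tim-4low macrophages, and Asah1 by 0.35 and 0.40, while Smpd1 and Lipa were called in neither. Lipa, the lipase of lysosomal cholesteryl esters, was called by edgeR in none of the 9 comparisons, and its 18 libraries lay between 228 and 352 CPM.

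Tpp1 had 302, 317 and 302 CPM in isotype against 185, 171 and 183 CPM in no-tumor Tim-4high libraries (log2 fold change 0.77 ± 0.06, adjusted p = 9.90e-08) and rose by 0.39 on the log2 scale in Tim-4low macrophages (adjusted p = 6.89e-05). Ppt1 and Acp2 rose in Tim-4low macrophages, at 0.31 ± 0.07 (adjusted p = 0.00181) and 0.45 ± 0.12 (adjusted p = 0.00614), and were not called in Tim-4high ones. Lamp1 had 1625, 1600 and 1619 against 1163, 1109 and 1199 CPM in Tim-4high and 1367, 1365 and 1355 against 950.3, 997 and 972 CPM in Tim-4low libraries, and rose by 0.48 and 0.49 with no overlap. Lamp2 rose by 0.39 in Tim-4high and 0.70 in Tim-4low macrophages. Mcoln1 fell by 0.58 in Tim-4high and 0.41 in Tim-4low macrophages on the log2 scale, with 36.8, 38.4 and 36.3 against 48.8, 55.9 and 62.5 CPM in Tim-4high libraries. By the transcript estimates, its coding form Mcoln1-201 held a median of 73.05% of its counts in isotype against 52.81% in no-tumor Tim-4high libraries. In Tim-4low libraries these shares were 63.53% and 48.85%. The fall is thus one of the whole gene's counts, and a fall of the coding form was not tested. Acp5 and Atp6v0d2 were called in neither population.

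Grn rose by 0.73 on the log2 scale in Tim-4high and 0.58 in Tim-4low macrophages of isotype tumor mice. The 3 transcription factor genes went different ways. Mitf had 64.8, 64.4 and 57.3 CPM in isotype against 44.3, 43.3 and 43.5 CPM in no-tumor Tim-4high libraries (log2 fold change 0.51 ± 0.10, adjusted p = 0.000383) and rose by 0.59 in Tim-4low macrophages (adjusted p = 0.000122). Tfe3 fell in Tim-4high macrophages (log2 fold change -0.48 ± 0.09, adjusted p = 0.000534), as did Tfeb (log2 fold change -0.24 ± 0.09, adjusted p = 0.037), and neither was called in Tim-4low ones. The call of Tfeb was lost with DESeq2 and with no filter on low counts, and without isotype Tim-4high library 2 or 3 or no-tumor Tim-4high library 2 (adjusted p up to 0.141), and the other 22 calls in Tim-4high and all 21 in Tim-4low macrophages passed in every alternative fit run.

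Marker sums moved with the tumor too. Of 8 macrophage markers 4 rose (Adgre1, Cd68, Fcgr1 and Itgam) and 2 fell (Csf1r and Lyz2) in Tim-4high macrophages. Their sum was 21400 to 22620 CPM in isotype against 36420 to 45080 CPM in no-tumor Tim-4high libraries. Lyz2 averaged 7411 and 31720 CPM in these groups, so the lower sum rests on Lyz2. Adgre1 averaged 3742 and 1950 CPM and Itgam 7855 and 4766 CPM in the same order. All 10 B cell markers fell in both populations. Of 13 T and NK cell markers 10 rose in each, and Cd2 fell in Tim-4low macrophages. The 13 summed to 26.2 to 150.4 CPM in isotype against 50.3 to 120.6 CPM in no-tumor Tim-4low libraries, with medians of 32.95 and 70.66 CPM. In Tim-4high libraries the sums were 17.7 to 135.2 against 7.55 to 33.2 CPM. Of 7 monocyte markers 6 rose in Tim-4high macrophages, and the 7 summed to 7880 to 8055 CPM in isotype against 194.4 to 273.5 CPM in no-tumor libraries. Of the 8 tumor, epithelial and mesothelial markers, Cdh1, Krt19, Msln, Upk3b and Wt1 rose in both populations and none fell. The 8 summed to 8.33 to 18.33 CPM in isotype against 0.604 to 2.465 CPM in no-tumor Tim-4high libraries. In Tim-4low libraries the sums were 18.33 to 26.62 against 1.185 to 7.778 CPM. Cdh1 had the highest level of the 8 in any library, 22.49 CPM, and Krt8 the next, 3.383 CPM, so these sums can rest largely on Cdh1. All 5 fibroblast markers tested rose in both populations, and the 6 listed summed to 8.48 to 41.3 against 0.316 to 0.523 CPM in Tim-4high and 19.7 to 69.01 against 0.193 to 0.752 CPM in Tim-4low libraries. Of the mast cell markers, Cma1, Cpa3, Mcpt4 and Tpsb2 fell in both populations and Hdc rose. The part of all these in the members' differences was not tested.

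**Figure D3:**
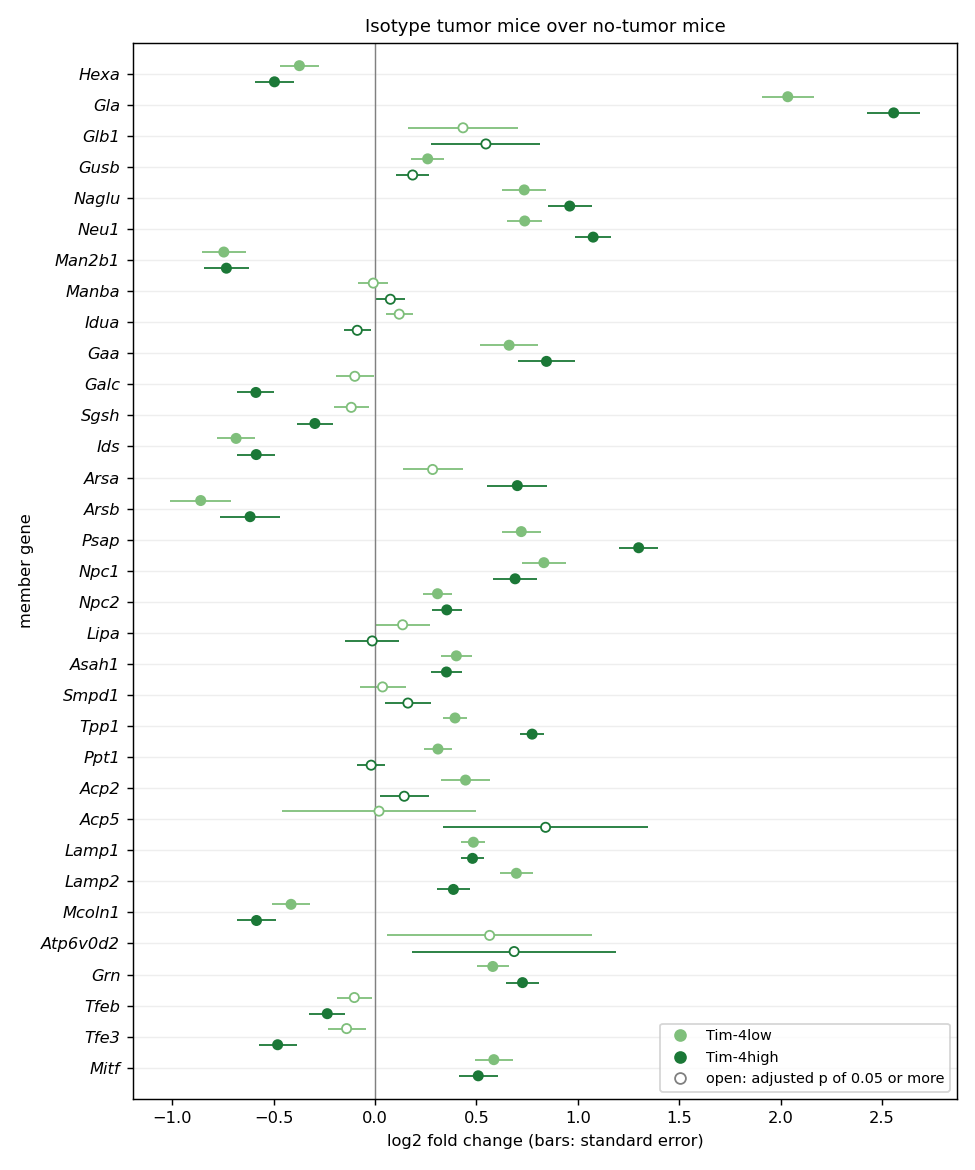
Log2 fold change of isotype tumor mice over no-tumor mice (x axis, bars are standard errors) for the 33 members (y axis, ordered by role) in Tim-4low and Tim-4high macrophages. Filled points passed an adjusted p of 0.05. Gla lies farthest right, at 2.04 in Tim-4low and 2.56 in Tim-4high macrophages, and Arsb, Man2b1 and Ids lie left of 0 in both.

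**Figure D4:**
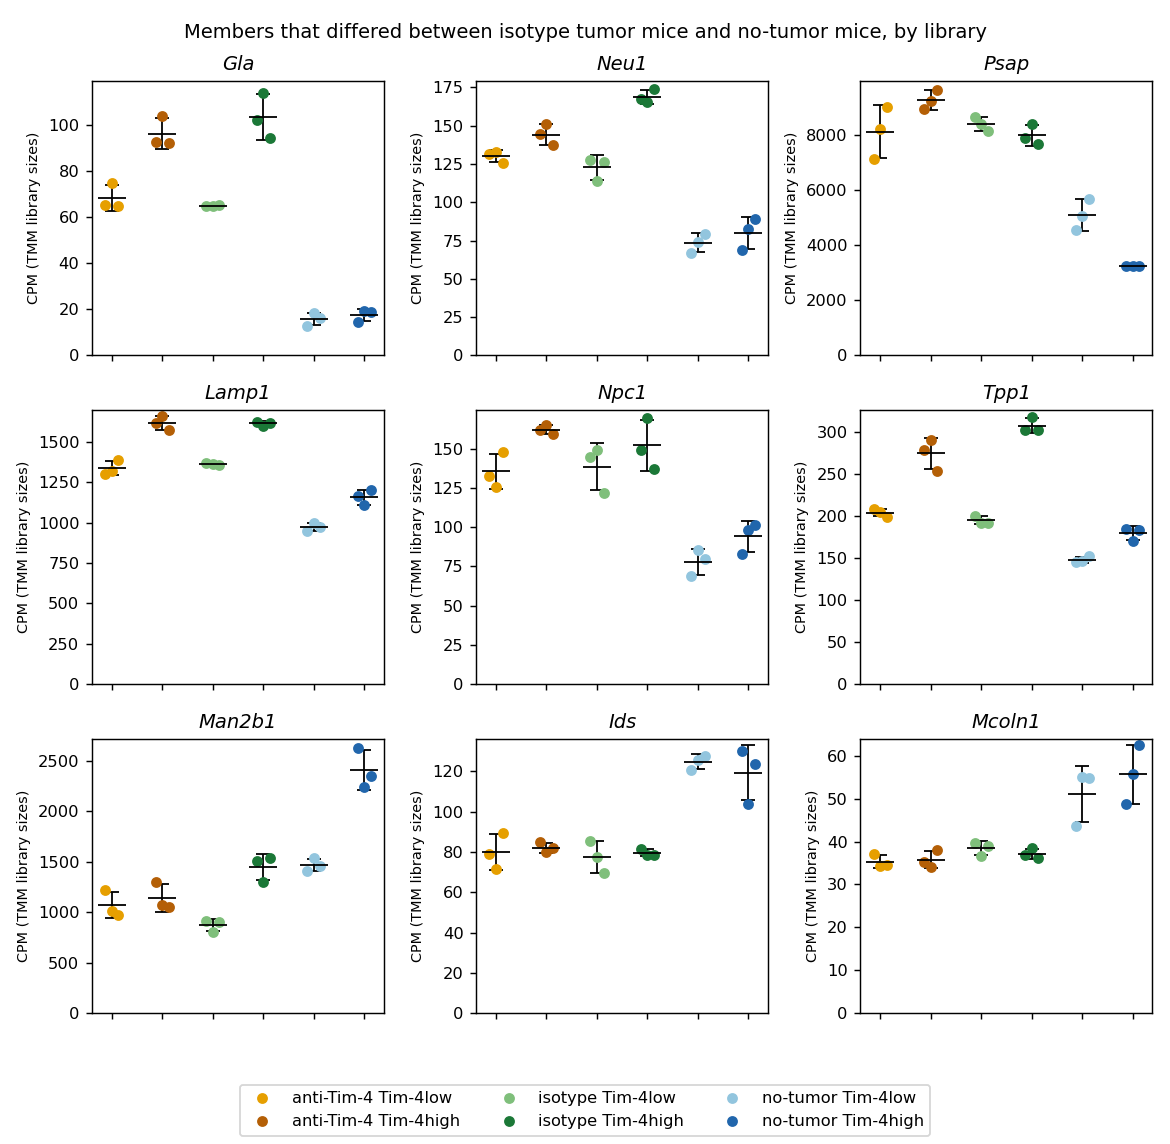
CPM (y axes, from 0) of 9 members in each of the 18 libraries (points) by group, with the mean and SD of 3 libraries as bars, from left to right Tim-4low and Tim-4high macrophages of anti-Tim-4, isotype and no-tumor mice. Gla, Neu1, Psap, Lamp1, Npc1 and Tpp1 are higher in tumor mice and Ids and Mcoln1 lower, and Man2b1 is highest in no-tumor Tim-4high libraries.

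The third question was how anti-Tim-4 compared with isotype in tumor mice. Cells were sorted by Tim-4, the protein this antibody is directed at. A change within cells and a change in which cells were sorted as Tim-4high or Tim-4low therefore cannot be told apart. This also holds for the populations after anti-Tim-4 above and the antibody interaction below. Timd4 averaged 186.9 CPM in anti-Tim-4 and 298 CPM in isotype Tim-4high libraries, without overlap (edgeR adjusted p = 0.626). In Tim-4high macrophages 6 members were called, 1 higher and 5 lower, against 7.97% of all genes tested (4.3% higher and 3.67% lower), and the median log2 fold change was -0.06 for the members and 0.00 for all genes. The 5 that fell were Arsa, Gaa, Naglu, Smpd1 and Grn. The isotype Tim-4high libraries also enter the tumor and population comparisons above. Arsa had 111, 98.5 and 84.4 CPM in anti-Tim-4 against 171, 151 and 172 CPM in isotype Tim-4high libraries (log2 fold change -0.75 ± 0.15, adjusted p = 0.0117). Gaa had 226, 202 and 174 against 338, 301 and 324 CPM (log2 fold change -0.68 ± 0.14, adjusted p = 0.0156). Neither gene's groups overlapped. Naglu had 182, 168 and 156 against 238, 215 and 252 CPM (log2 fold change -0.48 ± 0.11, adjusted p = 0.0187), Smpd1 39.7, 40.7 and 35.5 against 54.8, 50 and 54.7 CPM (log2 fold change -0.46 ± 0.11, adjusted p = 0.0256) and Grn 2579, 2506 and 2293 against 3066, 2925 and 3257 CPM (log2 fold change -0.33 ± 0.08, adjusted p = 0.0262). These groups were apart as well. Acp2 was the 1 member that rose, with 170, 178 and 183 against 132, 139 and 126 CPM (log2 fold change 0.42 ± 0.12, adjusted p = 0.0444).

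Other members fell short of the threshold in Tim-4high macrophages. Glb1 had 294, 232 and 183 CPM in anti-Tim-4 against 436, 375 and 459 CPM in isotype libraries and did not overlap, yet its log2 fold change of -0.84 ± 0.27 had an adjusted p of 0.0655. Man2b1 (log2 fold change -0.34 ± 0.11, adjusted p = 0.0636) and Ppt1 (log2 fold change -0.21 ± 0.07, adjusted p = 0.0706) were not called either. Counting members whose 3 anti-Tim-4 libraries all lay on 1 side of the 3 isotype ones, 7 were higher and 11 lower, against 20% and 19.3% of all genes. The 6 calls depended on which libraries were fitted, while their fold changes moved little: no member was called without anti-Tim-4 Tim-4high library 3, without isotype Tim-4high library 1 or without isotype Tim-4high library 3, and 2 were called without anti-Tim-4 Tim-4high library 2. Over the 11 alternative fits Arsa lay between -0.64 and -0.84, Gaa between -0.57 and -0.77 and Grn between -0.27 and -0.37 on the log2 scale. When these 2 groups were fitted alone 10 members were called, beside 2990 of 14745 genes. DESeq2 called 10, beside 2102 of 23511 genes, where the main fit called 1324 of 16609. Of 6 fibroblast markers 5 were tested and 4 were lower (Col1a1, Col1a2, Col3a1 and Dcn), and the 6 summed to 3.89 to 5.87 CPM in anti-Tim-4 against 8.48 to 41.3 CPM in isotype libraries. The 7 mast cell markers, none of them called, summed to 33.8 to 66.8 against 129.7 to 154.3 CPM, and the 8 macrophage markers, of which Cd14 and Cd68 fell, to 19980 to 20880 against 21400 to 22620 CPM. The 7 monocyte markers, of which Ifitm6 fell, summed to 3894 to 12060 CPM in anti-Tim-4 against 7880 to 8055 CPM in isotype libraries. The part of these in the result was not tested. In Tim-4low macrophages edgeR called 0 of the 33 members, against 0.325% of all genes (0.223% higher and 0.102% lower), and DESeq2 also called 0. Unadjusted p-values under 0.05 were found for 3 members there, Man2b1 (log2 fold change 0.29 ± 0.11, adjusted p = 0.292), Gaa (log2 fold change 0.34 ± 0.14, adjusted p = 0.349) and Tfeb (log2 fold change -0.19 ± 0.09, adjusted p = 0.405). All 3 anti-Tim-4 libraries lay above all 3 isotype ones for 1 member, Man2b1, and below for 1, Galc, against 8.02% and 9.96% of all genes.

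**Figure D5:**
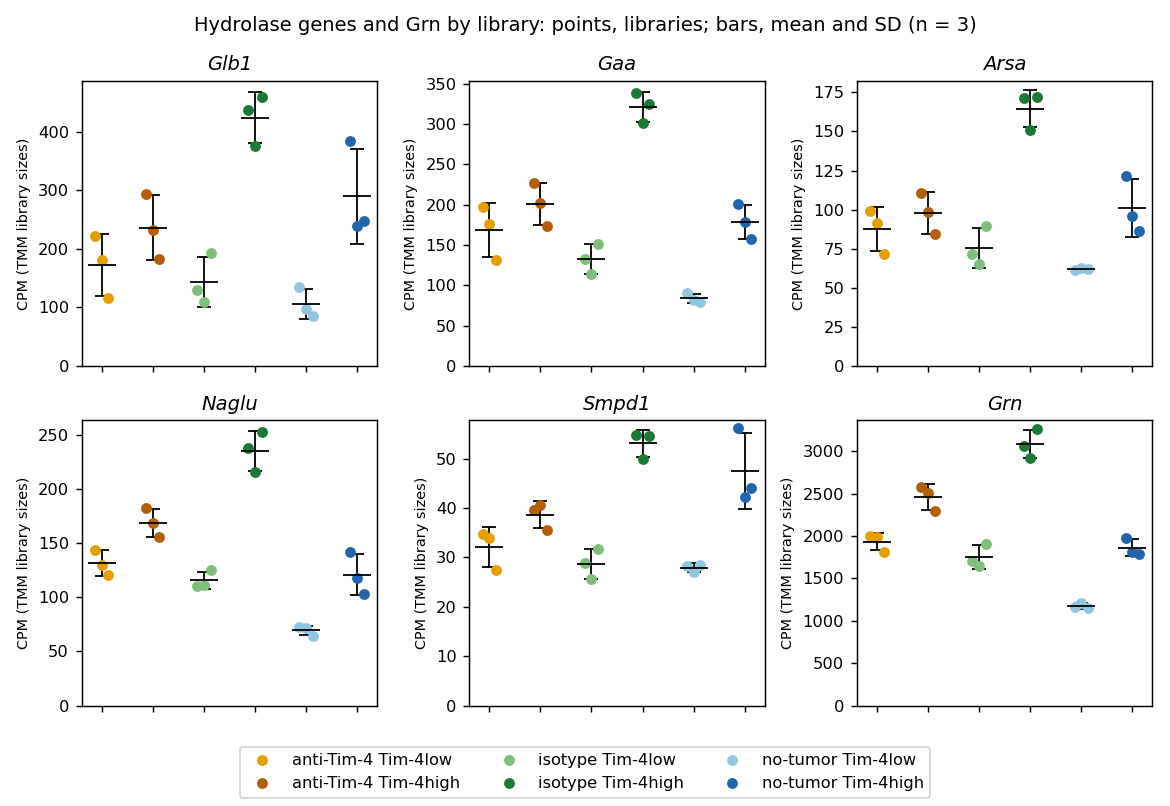
CPM (y axes, from 0) of Glb1, Gaa, Arsa, Naglu, Smpd1 and Grn in each of the 18 libraries (points) by group, with the mean and SD of 3 libraries as bars, from left to right Tim-4low and Tim-4high macrophages of anti-Tim-4, isotype and no-tumor mice. Isotype Tim-4high libraries have the highest mean for each gene, and the distance between the 2 populations is smaller in anti-Tim-4 than in isotype mice.

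Whether the difference between populations itself changed was tested with interaction terms. For antibody, the Tim-4low over Tim-4high log2 fold change was higher after anti-Tim-4 than with isotype for 6 members, and lower for none, against 2.93% of all genes (1.67% higher and 1.26% lower). They were Gaa (log2 fold change 1.02 ± 0.20, adjusted p = 0.0242), Arsa (log2 fold change 0.96 ± 0.21, adjusted p = 0.0329), Naglu (log2 fold change 0.66 ± 0.15, adjusted p = 0.0362), Man2b1 (log2 fold change 0.63 ± 0.15, adjusted p = 0.0411), Smpd1 (log2 fold change 0.62 ± 0.16, adjusted p = 0.0487) and Grn (log2 fold change 0.47 ± 0.11, adjusted p = 0.0409). For Gaa this sets a population difference of -0.26 after anti-Tim-4 against -1.28 with isotype, and for Arsa -0.16 against -1.12. The median of the term was 0.02 over members and -0.01 over all genes. None of the 6 was called in every alternative fit, though Gaa stayed between 0.89 and 1.17 and Arsa between 0.86 and 1.10 over 17 fits. No member was called when anti-Tim-4 Tim-4low library 1 or 2, anti-Tim-4 Tim-4high library 2 or 3, isotype Tim-4low library 1 or 2, or isotype Tim-4high library 1 or 3 was left out. With library number as a block 10 members were called, beside 2609 of 16609 genes, adding Glb1 (1.12, adjusted p = 0.000396), Neu1 (0.31, adjusted p = 0.0135), Tfeb (-0.44, adjusted p = 0.0143) and Acp2 (-0.44, adjusted p = 0.00972).

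For tumor, the term was called for 2 members, both lower, against 3.53% of all genes (1.32% higher and 2.21% lower), with medians of -0.01 over members and -0.02 over all genes. Psap was higher in Tim-4low macrophages without a tumor by 0.65 and differed by 0.07 with isotype, an interaction of -0.58 ± 0.14 (adjusted p = 0.0281). Tpp1 was lower in Tim-4low macrophages by more with isotype, an interaction of -0.38 ± 0.09 (adjusted p = 0.0218). No member was called without isotype Tim-4low library 2 or 3, isotype Tim-4high library 2 or no-tumor Tim-4low library 3, and 1 was called without isotype Tim-4low library 1, isotype Tim-4high library 3 or no-tumor Tim-4high library 3. With library number as a block 9 members were called, beside 1858 of 16609 genes, adding Gla (-0.51, adjusted p = 0.00408), Neu1 (-0.34, adjusted p = 0.0122), Arsa, Ppt1, Galc, Tfe3 and Acp5.

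The deposited transcript estimates gave the forms behind some of these levels, as shares of a gene's counts with no test. For Neu1, the retained-intron transcript Neu1-202 held a median of 19.3% in Tim-4low and 12.2% in Tim-4high libraries of isotype mice, against 30.6% and 28.0% in no-tumor mice. For Tpp1, the retained-intron transcript Tpp1-206 held 11.5% and 8.58% in isotype mice against 20% and 20.4% in no-tumor mice, in the same order of populations. For Mcoln1, Mcoln1-205, also with a retained intron, held 22.7% and 16.8% against 37.6% and 31.7%. In these 3 genes the isotype medians were lower than the no-tumor ones. Their anti-Tim-4 medians were between 9.53% for Tpp1-206 in Tim-4high and 21.5% for Mcoln1-205 in Tim-4low libraries. Not every retained-intron transcript of the members did so. Acp2-202 held 21.16% in isotype against 18.06% in no-tumor Tim-4low libraries. In Tim-4high libraries Arsa-201 held 62.1% against 61.99%, and Asah1-203 held 15.07% against 15.1%. Lower with isotype were Asah1-203 in Tim-4low libraries, and Tfe3-208 and Tfe3-212 in both populations. For Arsa, Arsa-201 with a retained intron held most of the counts in every group, with medians of 62.0% to 67.1%, so by these estimates most counts of Arsa are not of its coding form, Arsa-202. Lamp2-202 held medians of 64.9% in isotype Tim-4high and 78.1% in no-tumor Tim-4low libraries, the lowest and highest group.

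Other lysosomal genes outside the module were counted in 4 lists for context, and the shares of all genes called were 51.5% and 49.8% for the tumor in Tim-4high and Tim-4low macrophages, 24.6% and 24.1% between populations without a tumor and with isotype, and 7.97% for the antibody in Tim-4high macrophages. Of 17 proton pump subunit genes, 14 (82.4%) rose and none fell in Tim-4high macrophages of isotype tumor mice over no-tumor mice, and 13 rose and 1 fell in Tim-4low ones, with Atp6v1a at 0.94 and 1.10. Between populations the pump genes were mostly not called, with 2 higher and 1 lower in Tim-4low macrophages without a tumor and 2 each way with isotype, or 17.6% and 23.5% of the list. With the block 8 pump genes were called without a tumor and 7 with isotype, beside 5703 and 5658 of all 16609 genes tested. Of 24 other hydrolases and cofactors, 18 rose and 2 fell (83.3% called) with the tumor in Tim-4high macrophages, led by Gm2a, the GM2 activator (log2 fold change 2.69 ± 0.16, adjusted p = 9.41e-09), and 12 rose and 2 fell (58.3%) in Tim-4low ones. The same list had 5 higher and 11 lower (66.7%) in Tim-4low macrophages without a tumor and 2 higher and 18 lower (83.3%) with isotype, among them Glmp (-0.92) and Siae (-0.66). With anti-Tim-4 against isotype in Tim-4high macrophages, 5 of these 24 fell, among them Glmp and Man2b2, and 2 rose, Sumf1 and Plbd1 (29.2% called). Among 22 membrane genes tested, 10 rose and 4 fell (63.6%) with the tumor in Tim-4high macrophages, Gpnmb by 4.85, and among 22 genes of delivery and regulation 11 rose and 2 fell (59.1%). The largest of these was Tfec, which belongs to the family of Tfeb, Tfe3 and Mitf. It averaged 75.5 and 8.19 CPM in isotype and no-tumor Tim-4high libraries (log2 fold change 3.20 ± 0.18, adjusted p = 3.01e-09) and 55.6 and 3.08 CPM in the Tim-4low ones (log2 fold change 4.19 ± 0.19, adjusted p = 9.23e-10). In Tim-4low macrophages 13 membrane genes rose and 3 fell (72.7%), and 11 delivery and regulation genes rose and 4 fell (68.2%).

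The authors' deposited tables cover 2 of these comparisons. They come from the same series of libraries, so shared calls are no independent evidence. The share of all genes that pass the same FDR in them is not given here. For Tim-4high over Tim-4low in no-tumor mice, the authors' deposited table has 18 of the 33 members at an FDR below 0.05, 16 higher and 2 lower in Tim-4high, and all 18 were called here in the same direction. For the antibody comparison in Tim-4high macrophages the authors' deposited table has 12 members, 3 higher and 9 lower, which include all 6 called here in the same direction, and Lipa at a fold of 1.249 (FDR 0.0235 in the authors' deposited table).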

How the data were processed

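RNA from sorted peritoneal macrophages was sequenced in 18 libraries, 3 in each of 6 groups taken from the labels, with 24530070 to 34110392 counts each. Estimated counts for genes and for transcripts are as the authors deposited them, without normalization. Per the submitters' processing notes, STAR, DESeq2 and the build mm10 were used, with no versions named. The quantifier, the annotation and whether strand was used are not stated in the sources used here. The authors' deposited tables also hold p-values, FDR values and a signed linear fold score (a ratio, or minus its inverse) for 2 comparisons.

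Counts were rounded, and filterByExpr kept 16609 genes; the 6902 left out held at most 0.0878% of any library. edgeR 4.0.16 (R 4.3.3) fitted all 6 groups in 1 model (TMM factors, quasi-likelihood test, 12 residual degrees of freedom). A gene was called when its Benjamini-Hochberg adjusted p, taken over all genes tested, was under 0.05. Fold changes are log2, with standard errors after ±. The test was checked on simulated data. Exon lengths came from GENCODE M21 and promoter sequences from RefSeq (GRCm38.p6).

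The members, gene lists, roles and tests were chosen with earlier results of these data known. All members could be named, and of each other lysosomal list up to 3 called genes each way with the smallest p, except 1 gene that is counted but not reported by name here. Exons of another gene overlap those of 13 of the 33 members, whose counts are uncertain to that extent. Pairing by library number was examined on residuals around the group means. Within a condition the 9 same-numbered pairs of Tim-4low and Tim-4high libraries correlated at 0.155 to 0.4885, each over 0.1. Numbers were therefore taken to pair libraries there. For isotype Tim-4low library 1 this is weak, at 0.2167 with its own number and up to 0.2088 with another. Across conditions the range was -0.2936 to 0.1602, not each over 0.1, and numbers were not taken to pair. Alternatives were RLE factors, no filter, the compared groups alone, a replicate block, DESeq2 1.42.0 and leaving out each library.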

Additional observations from a re-analysis of the deposited data

Results flagged for a closer look

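The Tim-4low over Tim-4high difference changed between conditions, by the test of that difference, for 8 members. Between isotype tumor mice and no-tumor mice the interaction was -0.58 for Psap and -0.38 for Tpp1 on the log2 scale. Between anti-Tim-4 and isotype mice it was 0.96 for Arsa, 1.02 for Gaa, 0.47 for Grn, 0.63 for Man2b1, 0.66 for Naglu and 0.62 for Smpd1. None of the 8 passed in every alternative fit.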

How the results depend on the processing

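No direction of a member's called or near-called result (134 results with an adjusted p under 0.2) reversed under any alternative run, but of their 1582 alternative values 136 were no longer past the threshold and 61 newly passed it. Counts of members called that moved by over 1.5 times were these. For Tim-4low over Tim-4high after anti-Tim-4, 4 became 2 with RLE factors, 1 with no filter on low counts, 7 with DESeq2 and 15 with the replicate block. Calls over all genes went from 231 to 224, 177, 527 and 1182 in the same order. The fits with no filter and with DESeq2 were over 23511 genes and the others over 16609. For the antibody in Tim-4high macrophages, 6 became 10 with the compared groups alone and 10 with DESeq2. Calls over all genes in the same fits went from 1324 to 2990 and to 2102. For the tumor interaction, 2 became 1 with no filter, 4 with DESeq2 and 9 with the replicate block, where calls over all genes went from 587 to 479, 1038 and 1858. For the antibody interaction 6 became 10 with the replicate block, where calls over all genes went from 487 to 2609. The block was fitted on library number within a condition, where numbers were taken to pair libraries, and moved no other count of members called by over 1.5 times.

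Leaving out each library in turn gave 18 to 20 members called between populations without a tumor, 16 to 17 with isotype and 1 to 2 after anti-Tim-4. It gave 22 to 27 for the tumor in Tim-4high and 21 to 22 in Tim-4low macrophages, 0 to 6 and 0 to 0 for the antibody in Tim-4high and Tim-4low macrophages, 0 to 3 for the tumor interaction and 0 to 8 for the antibody interaction. Calls over all genes in these fits are not given here. The counts of the 4 other lysosomal lists were rerun under alternatives chosen after seeing the data, and 140 of 444 such values moved by over 1.5 times. Counts over all genes did so in 47 of 111. The cause of these moves was not tested. Depth limits Atp6v0d2, with at most 62 counts in a library.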
